A study of Homo sapiens with 6 samples.

Results

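The genes described here are the ligands of the tumour necrosis factor (TNF) family and their receptors. They were chosen by symbol: every row of the deposited table named TNFSF or TNFRSF with a number, together with TNF, LTA, LTB, FAS, FASLG, CD40, CD70 and CD27. This gave 40 genes of 42381 in the table, of which 16 are ligands and 24 are receptors. The RNA came from cultured MiaPaCa2-CasRx cells, a human pancreatic ductal adenocarcinoma (PDAC) line engineered with a transposon to produce CasRx, a Cas13d enzyme that cuts RNA at sites named by a guide. Knockdown cells also received, by lentivirus with a puromycin resistance gene and a dsRed reporter, a guide against PPP2R1A, the scaffold subunit of the phosphatase PP2A. Control cells carried CasRx and no guide, so that a guide that targets nothing was not part of the comparison. Each group had 3 libraries, and the study collected its RNA over a period of 3 weeks. The question put by the design is how expression changes when PPP2R1A is lowered. One guide was used in one cell line, and bulk RNA cannot tell apart a change in every cell and a change in the share of cells that make a transcript.

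TNF ligands are made as membrane proteins that work in trimers, and several are released from the cell surface by proteases such as ADAM17. Their receptors divide into those with a cytoplasmic death domain, which can recruit FADD and caspase-8 and lead to apoptosis, those that bind TRAF adaptors and lead mainly to NF-kB and JNK signalling, and decoys that bind ligand without passing on a death signal. Many ligands are best known from activated immune cells, where OX40L, GITRL and 4-1BBL costimulate T cells, whereas epithelial tumour cells commonly carry TNFR1, Fas and the TRAIL receptors.

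The libraries held 28474154, 29128497 and 34738517 counts in controls 1, 2 and 3 and 33208669, 45006732 and 42702126 counts in knockdowns 1, 2 and 3. Levels are given as CPM, counts set against the library total after scaling by the TMM method. PPP2R1A stood at 589.8, 623 and 647 CPM in the controls, at 143 and 142 CPM in knockdowns 1 and 2, and at 544 CPM in the library labelled knockdown 3. Its log2 fold change was -2.09 in knockdown 1-2 against control 1-2 (standard error 0.0851, edgeR adjusted p = 0.0107), and the study itself set the latest knockdown sample aside for a weaker knockdown. Knockdown 1-2 against control 1-2 is therefore the first comparison below. Of the markers of the line, VIM, ZEB1, KRT8 and KRT18 were present, and CDKN2A, a gene the line has lost, was at 0 in all 6 libraries. The keratins were not level. KRT8 stood at 772, 899 and 2414 CPM in the controls and at 4987, 5664 and 738 CPM in the knockdowns. In knockdown 1-2 against control 1-2, KRT8 (log2 fold change 2.67, edgeR adjusted p = 0.0118) and KRT18 (2.40, edgeR adjusted p = 0.0133) rose. VIM (-1.03, edgeR adjusted p = 0.0570) and ZEB1 (-0.47, edgeR adjusted p = 0.139) did not pass. All 5 markers of T and NK cells were at 0 in every library, as were 2 of 3 B cell markers, and the 4 fibroblast markers summed to at most 0.319 CPM. The 5 myeloid markers summed to 0.648 to 1.55 CPM, apart from 5.59 CPM in control 3, where LYZ held 174 counts against 0 in every other library. Of 3 endothelial markers PECAM1 was at 0, whereas CDH5 and VWF together gave 2.95, 2.30 and 0 CPM in the controls and 60.6, 37.6 and 3.68 CPM in the knockdowns. The part of these genes in the results below was not tested.

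Silent or nearly so in these cells were 20 members. In the whole deposited table, 17321 of 42540 rows had no count in any library. Of the 40 members, 8 had no count in any library, namely the ligands FASLG, LTA, TNFSF11 and TNFSF14 and the receptors TNFRSF11B, TNFRSF13B, TNFRSF17 and TNFRSF18. Another 12 had at most 23 counts in any library. The remaining 20, which were 6 ligands and 14 receptors, reached 1 CPM in at least 1 group of libraries or passed a test. In control 1-2 the highest levels per kilobase of exon were those of TNFRSF12A (79.3 CPM per kilobase), TNFSF4 (77.0) and TNFRSF1A (72.7), whereas TNFSF18 stood at 37.1 and TNFRSF10B at 27.0. With SDs of 9.12, 9.08 and 31.0 CPM (n = 2) around means of 110.5, 286 and 216 CPM, no order among the first 3 can be read. TNFRSF6B had a mean of 43.3 CPM per kilobase, but its 49.4 CPM carried an SD of 46.6 (n = 2), so that it has no readable place in this order. In knockdown 1-2 the order began with TNFRSF1A (141 CPM per kilobase) and TNFRSF12A (95.9), whereas TNFSF4 stood at 3.88 and TNFRSF6B at 2.16.

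**Figure D1:**
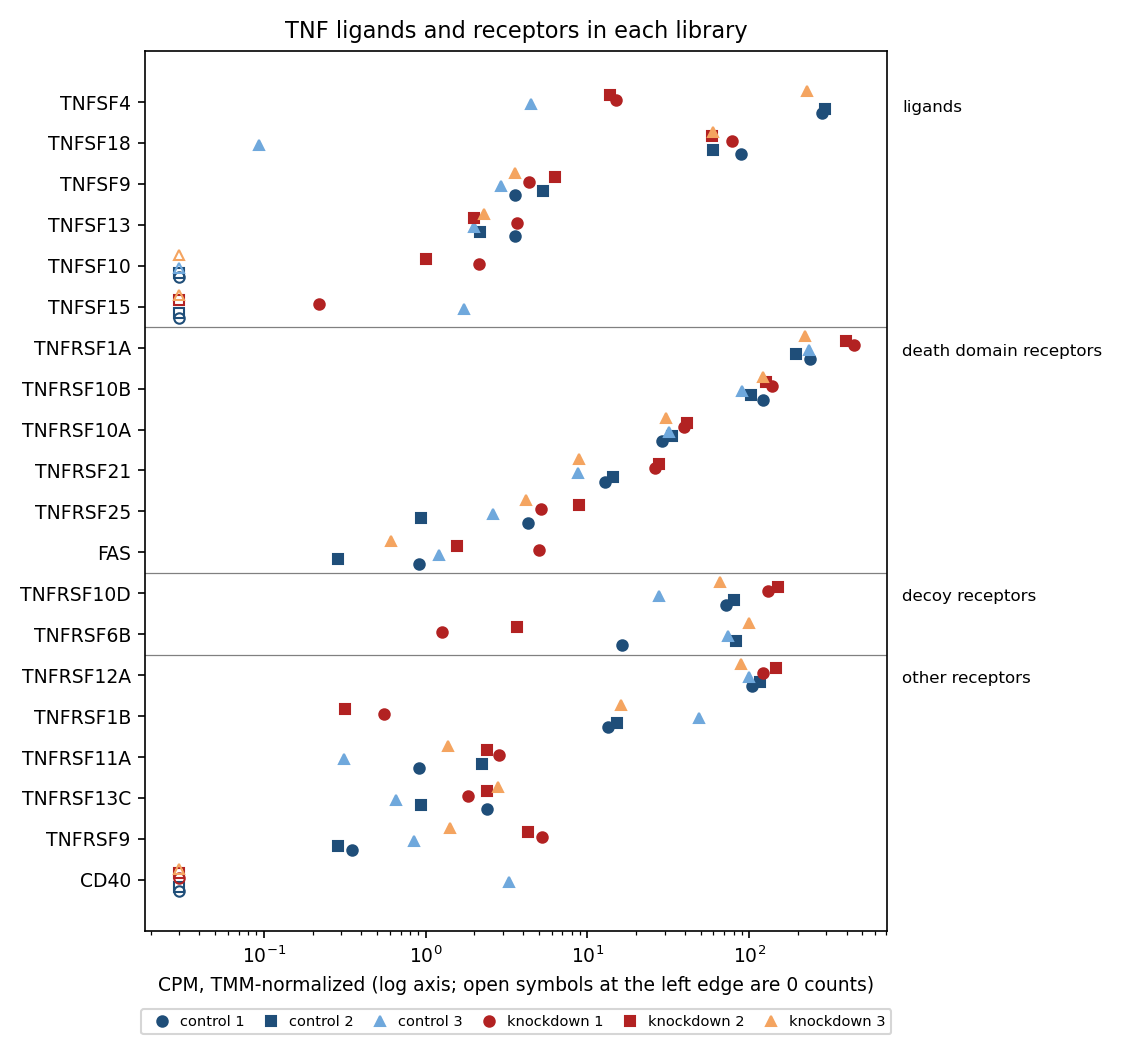
Level of the 20 named members in each of the 6 libraries, as TMM-normalized CPM on a logarithmic horizontal axis, with 1 symbol per library and open symbols at the left edge for 0 counts. TNFSF4 and TNFSF18 sit far to the left in control 3 (4.50 and 0.0937 CPM), and TNFRSF1B and TNFRSF9 separate knockdown 1-2 from the other 4 libraries in opposite directions.

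Of the 40 members, 18 had enough counts to be tested in knockdown 1-2 against control 1-2. The ligand TNFSF10 and the receptors TNFRSF9, TNFRSF1A, TNFRSF21 and TNFRSF10D rose, the ligand TNFSF4 and the receptor TNFRSF1B fell, and 11 did not pass the test at an adjusted p of 0.05. TNFSF10, at 0 in controls 1 and 2, could be tested only as a rise. For comparison, 13.6% of the 15596 genes tested passed, 7.15% of them higher and 6.41% lower. The 18 members had a median log2 fold change of 0.35, against 0.01 over all genes tested. By role, 2 of 6 death domain receptors rose and none fell (median log2 fold change 0.96), 1 of 2 tested decoy receptors rose and the other did not pass, 1 of 5 tested TRAF-binding receptors rose and 1 fell (median 0.34), and 1 of 5 tested ligands rose and 1 fell (median -0.02). Without control 1, control 2, knockdown 1 or knockdown 2, each left out in turn, no member passed edgeR's test (7 to 11 members at an unadjusted p under 0.05), and neither did any other gene (3377 to 4797 genes). All 7 members kept their direction in these fits. In each of them 1 group held a single library, so the lack of calls cannot be read as a result about the members. With the replicate number as a block, edgeR called none of the 18 members (11 at an unadjusted p under 0.05) and none of all genes (5162), and the 7 members had adjusted p-values of 0.0630 to 0.0856. The block too left little from which to measure the spread.

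**Figure D2:**
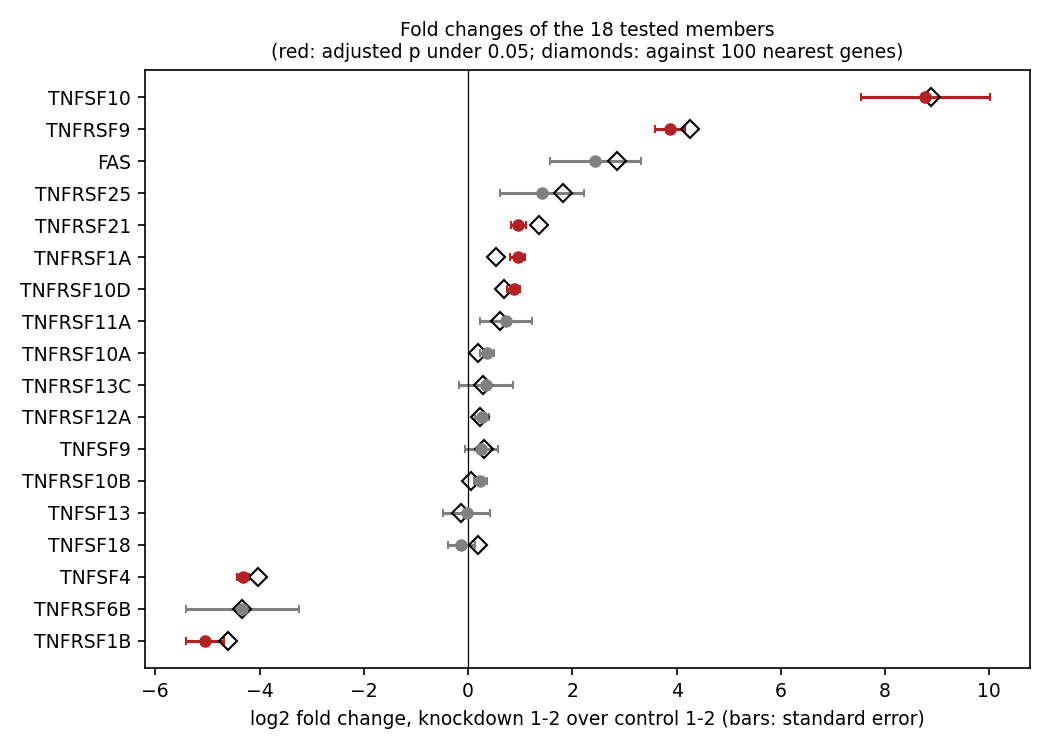
Log2 fold change of the 18 tested members in knockdown 1-2 over control 1-2 (points, with the standard error as bars, red where the edgeR adjusted p is under 0.05), and the same value measured against the 100 nearest expressed genes on the chromosome (open diamonds). TNFSF4 (-4.32) and TNFRSF1B (-5.05) lie far below 0, TNFRSF9 (3.88) and TNFSF10 (8.78, with controls at 0) far above, and TNFRSF1A moves from 0.95 to 0.53 when measured against its neighbours.

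The regions upstream of 4 members are shown because TNFSF4 and TNFRSF1B gave the falls that passed the test, TNFRSF9 the largest rise among the receptors that passed, and TNFSF18, the chromosomal neighbour of TNFSF4, was low together with it in control 3. Each is 300 bases long, runs 5′ to 3′ on the strand of its gene from upstream of the transcription start to just after it, and is credited to RefSeq with GRCh38.p14. Capitals mark matches, on either strand, to GGG and CC with 5 bases of any kind between them, a loose pattern for NF-kB, and to TGANTCA, a pattern for AP-1. TNFSF4 lies on the minus strand at chr1:173205483-173205782, TNFSF18 on the minus strand at chr1:173050892-173051191, TNFRSF1B on the plus strand at chr1:12166741-12167040 and TNFRSF9 on the minus strand at chr1:7940790-7941089.
TNFSF4: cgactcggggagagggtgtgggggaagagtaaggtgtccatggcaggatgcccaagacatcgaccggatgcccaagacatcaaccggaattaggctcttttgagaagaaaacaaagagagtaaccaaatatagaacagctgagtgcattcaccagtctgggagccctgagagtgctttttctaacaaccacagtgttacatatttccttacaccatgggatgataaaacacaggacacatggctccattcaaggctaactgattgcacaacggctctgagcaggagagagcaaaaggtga
TNFSF18: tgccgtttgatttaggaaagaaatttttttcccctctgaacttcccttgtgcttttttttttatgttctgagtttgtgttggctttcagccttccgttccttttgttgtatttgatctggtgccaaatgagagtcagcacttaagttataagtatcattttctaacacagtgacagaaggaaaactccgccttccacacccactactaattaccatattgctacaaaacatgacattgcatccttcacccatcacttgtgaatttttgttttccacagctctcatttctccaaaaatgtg
TNFRSF1B: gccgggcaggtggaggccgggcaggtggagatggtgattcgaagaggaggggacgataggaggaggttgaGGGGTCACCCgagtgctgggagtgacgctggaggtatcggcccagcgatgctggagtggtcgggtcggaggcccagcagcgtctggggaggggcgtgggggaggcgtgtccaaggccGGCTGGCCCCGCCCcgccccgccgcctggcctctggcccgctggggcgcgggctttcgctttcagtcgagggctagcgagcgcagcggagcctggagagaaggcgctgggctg
TNFRSF9: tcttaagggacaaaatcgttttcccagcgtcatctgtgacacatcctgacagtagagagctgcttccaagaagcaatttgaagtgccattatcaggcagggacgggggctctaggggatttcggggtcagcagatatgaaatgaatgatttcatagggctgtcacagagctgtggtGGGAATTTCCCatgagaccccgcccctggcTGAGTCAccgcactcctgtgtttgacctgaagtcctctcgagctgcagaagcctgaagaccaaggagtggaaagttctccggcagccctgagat
The first 2 windows held no match, nor did they hold TATAAA. TNFRSF1B held 3 matches to the NF-kB pattern, GGGGTCACCC and the overlapping GGCTGGCCCC and GGCCCCGCCC. TNFRSF9 held GGGAATTTCC and GGAATTTCCC, which overlap and begin 74 and 73 bases before the start, and the AP-1 match TGAGTCA, which begins 44 bases before it. Of 27305 promoters of this length, 58.0% held the NF-kB pattern and 7.76% the AP-1 pattern, and 20 and 6 of the 27 members with a RefSeq window did. A match describes letters, not a bound factor.

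TNFSF4, which encodes OX40L, had the highest level per kilobase among the ligands in control 1-2 and fell 19.9-fold. It stood at 279.9 and 293 CPM in controls 1 and 2 and at 15.0 and 13.9 CPM in knockdowns 1 and 2, a log2 fold change of -4.32 (standard error 0.109, edgeR adjusted p = 0.00758). The groups did not overlap, and the change was many times the spread within each. Among the other 2 libraries the pattern was the reverse, since control 3 held 4.50 CPM and the library labelled knockdown 3 held 227 CPM. Control 3 was thus lower than the libraries with PPP2R1A knocked down, although its own PPP2R1A was at 647 CPM. When control 3 was added to the comparison, the log2 fold change of TNFSF4 was -3.74 and the edgeR adjusted p was 0.267. Its StringTie locus also carried PRDX6-AS1, an antisense RNA, at 0.958 to 4.68 CPM, so that reads of the 2 cannot be fully separated. The receptor of OX40L, TNFRSF4 (OX40), had at most 8 counts in a library.

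TNFSF18 encodes GITRL, the ligand of TNFRSF18 (GITR), and lies directly beside TNFSF4 on chromosome 1 with FASLG on its other side. Its level was 89.1 and 60.1 CPM in controls 1 and 2 and 78.6 and 58.5 CPM in knockdowns 1 and 2. These ranges overlapped, with a log2 fold change of -0.13 (standard error 0.267, edgeR adjusted p = 0.787). TNFSF18 thus did not share the fall of its neighbour in knockdown 1-2 beyond its spread. In control 3, however, it had 3 counts (0.0937 CPM) against 2535 and 1668 counts in controls 1 and 2, a ratio of 797.8 with a 95% interval of 272.8 to 3870 that covers counting error only. The library labelled knockdown 3 held 60.1 CPM. The 100 expressed genes nearest to these ligands were lower in control 3 by a median log2 of -0.38, and FASLG was at 0 throughout.

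**Figure D3:**
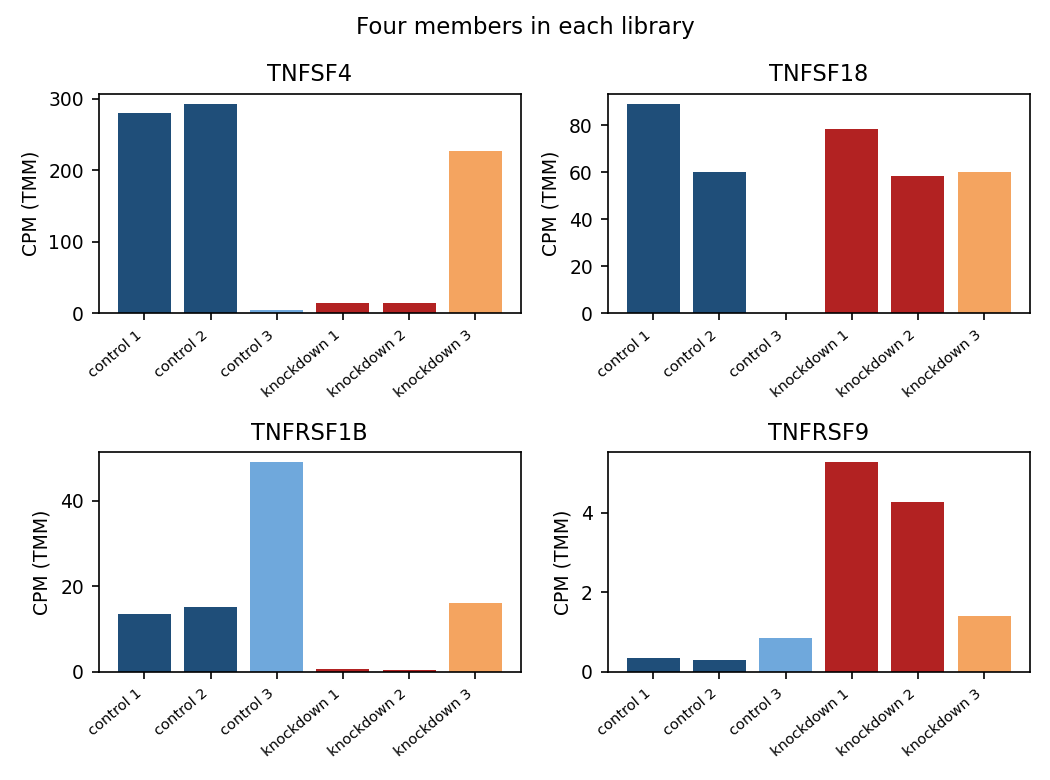
Bars give TNFSF4, TNFSF18, TNFRSF1B and TNFRSF9 per library in TMM-normalized CPM, on linear axes that start at 0. In control 3 the bar of TNFSF4 is short (4.50 CPM), that of TNFSF18 cannot be seen (0.0937 CPM) and that of TNFRSF1B is the tallest (48.9 CPM), and TNFRSF9 is tallest in knockdowns 1 and 2 (5.27 and 4.28 CPM).

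The receptors of TNF moved in opposite directions. TNFRSF1A, the death domain receptor TNFR1, rose from 238 and 194 CPM in controls 1 and 2 to 441 and 399 CPM in knockdowns 1 and 2 (1.93-fold). Its log2 fold change was 0.95 (standard error 0.139, edgeR adjusted p = 0.0336). Control 3 (235 CPM) and the library labelled knockdown 3 (221 CPM) lay with the other controls, and the rise still passed with control 3 added (log2 fold change 0.91, edgeR adjusted p = 0.0402). The 100 expressed genes nearest to TNFRSF1A on chromosome 12 were themselves higher by a median log2 of 0.43 in knockdown 1-2. Measured against them its log2 fold change was 0.53 and no longer passed (edgeR adjusted p = 0.0694).

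TNFRSF1B, the TRAF-binding receptor TNFR2, fell 33.9-fold, from 13.4 and 15.2 CPM in controls 1 and 2 to 0.552 and 0.319 CPM in knockdowns 1 and 2. Its log2 fold change was -5.05 (standard error 0.359, edgeR adjusted p = 0.0153). It passed against its nearest genes (log2 fold change -4.61, edgeR adjusted p = 0.0188) and with control 3 added (-5.90, edgeR adjusted p = 0.0408). Control 3 had the highest level at 48.9 CPM, and the library labelled knockdown 3 stood at 16.1 CPM, so knockdowns 1 and 2 were the 2 lowest of all 6 libraries. The ligand TNF had 5, 0 and 0 counts in the controls and 10, 23 and 0 in the knockdowns, and LTB had 0, 2 and 0 against 11, 9 and 0. Neither was tested, and LTA was at 0.

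The TRAIL system showed its ligand in knockdowns 1 and 2 alone. TNFSF10 (TRAIL), a ligand able to start apoptosis, had 78 and 47 counts there (2.15 and 1.00 CPM) and 0 counts in the 4 other libraries. Against a floor of 3 counts over control 1-2 this was at least 28.1-fold higher (edgeR adjusted p = 0.0476). TNFSF10 passed the count filter only through knockdowns 1 and 2, so it could enter this test only as a rise. The call was at the edge of the threshold: with control 3 added the edgeR adjusted p was 0.0567, and against the 100 nearest genes it was 0.0553.

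Among the receptors of TRAIL, the decoy rose and the death receptors did not pass. TNFRSF10D, the decoy DcR2, which has a truncated death domain, stood at 71.6 and 80.0 CPM in controls 1 and 2 and at 129.8 and 149.7 CPM in knockdowns 1 and 2. Its log2 fold change was 0.88 (standard error 0.124, edgeR adjusted p = 0.0322). It was lower in control 3 (27.7 CPM) and in the library labelled knockdown 3 (66.1 CPM) than in controls 1 and 2. With control 3 added the edgeR adjusted p was 0.201 at a log2 fold change of 1.22.

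TNFRSF10A (DR4) was at 29.01 and 33.3 CPM in controls 1 and 2 and at 39.3 and 41.4 CPM in knockdowns 1 and 2 (log2 fold change 0.37, standard error 0.128, edgeR adjusted p = 0.146). TNFRSF10B (DR5), the more abundant of the death receptors, was at 122 and 102 CPM and at 138 and 127 CPM (0.24, standard error 0.129, edgeR adjusted p = 0.290). The differences for DR4 and DR5 were thus small and did not pass, and no test of DcR2 against DR4 or DR5 was made. The other decoy of this cluster, TNFRSF10C, had 0 to 11 counts in a library. These 4 receptors stand side by side on chromosome 8 and resemble each other in sequence, and how reads shared between them were assigned is not given in the sources used here.

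TNFRSF9 (4-1BB), a TRAF-binding costimulatory receptor of T cells, gave the largest rise among the receptors. It stood at 0.352 and 0.288 CPM in controls 1 and 2 and at 5.27 and 4.28 CPM in knockdowns 1 and 2, a 14.7-fold difference (log2 fold change 3.88, standard error 0.282, edgeR adjusted p = 0.0156). Control 3 held 0.844 CPM and the library labelled knockdown 3 held 1.41 CPM, so that all 3 libraries labelled knockdown lay above all 3 controls. At number 3 this rests on 27 and 60 counts, a log2 fold change of 0.73 with a standard error of 0.354. PPP2R1A was at 544 CPM in the library labelled knockdown 3. The rise in knockdown 1-2 passed against the nearest genes of TNFRSF9 (log2 fold change 4.25, edgeR adjusted p = 0.0157) and with control 3 added (3.25, edgeR adjusted p = 0.0456). The T cell markers were at 0 in the same libraries. TNFSF9, the ligand of 4-1BB, was at 3.59 and 5.29 CPM in controls 1 and 2 and at 4.36 and 6.32 CPM in knockdowns 1 and 2, with overlapping ranges (log2 fold change 0.26, standard error 0.324, edgeR adjusted p = 0.639).

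The other death domain receptors were FAS, TNFRSF21 and TNFRSF25. TNFRSF21 (DR6) rose from 12.9 and 14.4 CPM in controls 1 and 2 to 26.0 and 27.5 CPM in knockdowns 1 and 2 (log2 fold change 0.96, standard error 0.146, edgeR adjusted p = 0.0348). Control 3 (8.69 CPM) and the library labelled knockdown 3 (8.85 CPM) were below all 4 of these libraries. The genes around it on chromosome 6 were lower in knockdown 1-2 by a median log2 of -0.40, and against them its log2 fold change was 1.36 (edgeR adjusted p = 0.0266). With control 3 added its edgeR adjusted p was 0.0791.

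FAS, the receptor of Fas ligand, was low in every library, at 0.914 and 0.288 CPM in controls 1 and 2 and 5.05 and 1.55 CPM in knockdowns 1 and 2. Its log2 fold change of 2.44 had a standard error of 0.876 and did not pass (edgeR adjusted p = 0.153), whereas DESeq2 gave an adjusted p of 0.0495. Its locus also carried STAMBPL1, which had 0, 0 and 601 counts in controls 1, 2 and 3 and 17, 68 and 0 in knockdowns 1, 2 and 3. FASLG itself had no count. TNFRSF25 (DR3) spread within each group, with 4.29 and 0.936 CPM against 5.13 and 8.89 CPM (log2 fold change 1.42, edgeR adjusted p = 0.310). Its locus also carried PLEKHG5, at 10.3, 7.99 and 11.3 CPM in the controls and 8.47, 22.7 and 12.1 CPM in the knockdowns. Reads of TNFRSF25 and PLEKHG5 may thus not be fully separated.

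TNFRSF6B (DcR3), a soluble decoy that binds Fas ligand, LIGHT and TL1A, was low in knockdowns 1 and 2 and unequal among the controls. It stood at 16.4, 82.4 and 74.2 CPM in the controls, at 1.27 and 3.66 CPM in knockdowns 1 and 2 and at 99.1 CPM in the library labelled knockdown 3. The groups of the first comparison did not overlap, but with a log2 fold change of -4.33 and a standard error of 1.09 edgeR's adjusted p was 0.0820, whereas DESeq2's was 1.40e-05. The gene shares its locus with RTEL1 and with the read-through transcript RTEL1-TNFRSF6B, to which 922, 192 and 548 counts were assigned in the controls and 654, 602 and 967 in the knockdowns. TNFRSF6B held 33.6% of the counts of itself and the read-through in control 1 and 92.3% in control 2. The sum of the 2 was 48.8, 89.3 and 91.3 CPM in the controls and 19.3, 16.5 and 122 CPM in the knockdowns, so that knockdowns 1 and 2 were lowest by this measure also, with a smaller distance.

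Of the remaining TRAF-binding receptors, TNFRSF12A (Fn14, the TWEAK receptor) was among the most abundant members and differed little. It stood at 104 and 117 CPM in controls 1 and 2 and at 121 and 146 CPM in knockdowns 1 and 2 (log2 fold change 0.27, standard error 0.139, edgeR adjusted p = 0.278). Its ligand TNFSF12 (TWEAK) had at most 2 counts in a library. TNFRSF11A (RANK) at 0.312 to 2.84 CPM and TNFRSF13C (the BAFF receptor) at 0.656 to 2.81 CPM were low, with edgeR adjusted p-values of 0.388 and 0.704. TNFSF13 (APRIL), at 1.98 to 3.67 CPM, had a log2 fold change of -0.02 (edgeR adjusted p = 0.979). CD40, a receptor known from antigen-presenting cells, and TNFSF15 (TL1A) stood apart: CD40 had 105 counts in control 3 and 0 in the 5 other libraries, and TNFSF15 had 55 counts in control 3, 8 in knockdown 1 and 0 elsewhere. Against a floor of 3 counts over control 1-2, control 3 was at least 61.5-fold higher for CD40 and at least 32.2-fold higher for TNFSF15. TNFSF8 and CD70 also had their highest counts in control 3, at 15 and 8.

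The genes that pass on the signal of these receptors were counted in lists. Of 33 tested adaptors and receptor-proximal genes, 5 rose, 1 fell and 27 did not pass, beside the 13.6% of all genes that were called (7.15% higher, 6.41% lower). Their median log2 fold change was 0.26, against 0.01 for all genes. TRAF1, an adaptor bound by TNFR2 and 4-1BB, stood at 4.43, 4.90 and 3.87 CPM in the controls and at 34.7, 34.6 and 8.76 CPM in the knockdowns (log2 fold change 2.89, standard error 0.151, edgeR adjusted p = 0.0118 in knockdown 1-2). CFLAR, which encodes the caspase-8 inhibitor c-FLIP, rose from 37.1 and 35.8 CPM to 108.5 and 96.0 CPM (log2 fold change 1.48, edgeR adjusted p = 0.0160), with 28.3 CPM in control 3 and 23.8 CPM in the library labelled knockdown 3. Beside it on the chromosome, the initiator caspases CASP10 (log2 fold change 1.52, edgeR adjusted p = 0.0237) and CASP8 (0.76, edgeR adjusted p = 0.0294) rose as well. Against their 100 nearest genes CFLAR still passed (0.96, edgeR adjusted p = 0.0353), whereas CASP10 (1.01, edgeR adjusted p = 0.0557) and CASP8 (0.24, edgeR adjusted p = 0.247) did not. The other 2 genes of this list to pass were TRAF3IP2, which rose, and TRAF5, which fell.

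**Figure D4:**
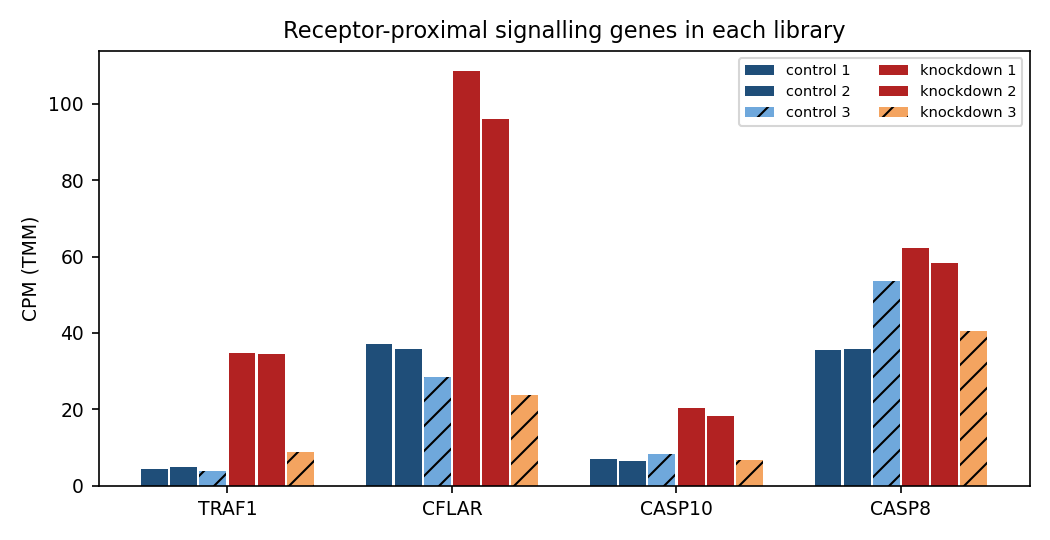
Bars give TRAF1, CFLAR, CASP10 and CASP8 per library in TMM-normalized CPM on an axis that starts at 0, with hatching for control 3 and the library labelled knockdown 3. Knockdowns 1 and 2 stand above the other 4 libraries for all 4 genes, and for CASP8 the distance to control 3 (53.6 CPM) is small.

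Of the 14 genes of the NF-kB pathway itself, 1 passed the test: CHUK, a catalytic subunit of the IkB kinase, fell by 0.58 on the log2 scale (edgeR adjusted p = 0.0470), and this was -0.16 against its nearest genes (edgeR adjusted p = 0.424). IKBKG (log2 fold change 0.58, edgeR adjusted p = 0.0581), RELB (0.63, edgeR adjusted p = 0.0805) and NFKBIB (-0.55, edgeR adjusted p = 0.127) did not pass. Of 23 tested genes known to respond to TNF or NF-kB, 4 rose, 1 fell and 18 did not pass, beside 7.15% higher and 6.41% lower among all genes. LIF and IL1B, at 0 in controls 1 and 2, passed the count filter only through knockdowns 1 and 2 and could count only as rises. The median log2 fold change of this list was 0.63, against 0.01 for all genes. The cytokine gene LIF was at 0 in controls 1 and 2 and at 74.5 and 72.7 CPM in knockdowns 1 and 2 (edgeR adjusted p = 0.0107), but it stood at 27.5 CPM in control 3, above the 17.2 CPM of the library labelled knockdown 3. PTX3, a secreted pattern recognition protein, rose from 16.0 and 22.1 CPM to 538 and 551 CPM (log2 fold change 4.83, edgeR adjusted p = 0.0113). It too was higher in control 3 (197 CPM) than in the library labelled knockdown 3 (16.3 CPM), and the knockdown effect at number 3 differed from that at numbers 1-2 for PTX3 (-8.44 on the log2 scale, edgeR adjusted p = 0.0180 for the interaction) and for LIF (edgeR adjusted p = 0.0180). The chemokine gene CXCL1 went the other way, from 108 and 64.9 CPM to 21.4 and 14.6 CPM (-2.27, edgeR adjusted p = 0.0360), with 35.3 CPM in control 3 and 68.1 CPM in the library labelled knockdown 3. TRAF1 is on this list too, and IL1B rose from 0 to 0.414 and 0.404 CPM. The list therefore did not move as one. Of 4 tested family genes outside the symbols chosen (EDA, NGFR, LTBR and RELT), none passed edgeR's test, and EDA came nearest with a log2 fold change of 1.22 (edgeR adjusted p = 0.0527).

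Over all 6 libraries none of 17 tested members passed edgeR's test (2 at an unadjusted p under 0.05), as against 0.0065% of all 15386 genes, and DESeq2 called 1, TNFRSF9 (log2 fold change 2.88, adjusted p = 0.0114). For that DESeq2 fit no count over all genes was made. Without the library labelled knockdown 3, TNFRSF1A, TNFRSF9 and TNFRSF1B passed edgeR's test (3 of 19 members tested). In the same fit 704 of 15922 genes passed (363 higher and 341 lower). The knockdown effect at number 3 minus that at numbers 1-2 was tested as an interaction, in which the single libraries of number 3 are assumed to vary like the others. It passed for TNFSF4 (difference of 9.96 on the log2 scale, edgeR adjusted p = 0.0125) and TNFSF18 (9.39, edgeR adjusted p = 0.0252) (2 higher members of 17). Of all genes 4.54% passed, 2.35% higher and 2.19% lower. With the replicate block neither passed (8 members at an unadjusted p under 0.05). The difference for TNFRSF1B was 3.44 (edgeR adjusted p = 0.0525) and that for TNFRSF9 was -3.15 (edgeR adjusted p = 0.0512).

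Control 3 against control 1-2 gave 3 lower members of 17 and none higher, beside 2.39% of all genes (1.24% lower and 1.15% higher). TNFSF4 was lower by -5.99 on the log2 scale (edgeR adjusted p = 0.0160), TNFSF18 by -9.58 (edgeR adjusted p = 0.0330) and TNFRSF10D by -1.45 (edgeR adjusted p = 0.0488). In the library labelled knockdown 3 against control 3, TNFSF4 alone passed (log2 fold change 5.66, edgeR adjusted p = 0.0293), beside 0.273% of all genes (0.182% higher and 0.091% lower). These contrasts share control 3, the library that also held the LYZ, CD40, TNFSF15 and STAMBPL1 counts that controls 1 and 2 lacked, and their part in the result was not tested. Among 11506 genes that reached 5 CPM, 192 to 238 differed at least 4-fold between any 2 of the library labelled knockdown 3, control 1 and control 2, and 197 did between knockdowns 1 and 2, whereas every other pair of libraries differed in 498 to 865. Of the 14 members among these genes, none differed 4-fold between knockdowns 1 and 2 and 2 to 3 did between control 3 and the other controls.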

How the data were processed

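RNA from 3 control and 3 knockdown samples of MiaPaCa2-CasRx cells was sequenced from TruSeq libraries. The deposited table gives whole-number counts per gene, which the authors made with FastQC, STAR and StringTie. Software versions were not given in the sources used here, nor were genome build and annotation. StringTie derives counts from coverage, so they are estimates. Of 42540 rows, 159 exact copies of another row of the same gene (at most 0.102% of counts) were left out. The study describes the samples as independent replicates made over 3 weeks, and the p-values speak of the spread among them. Its methods also describe the knockdown as a stable cell population selected with puromycin. If the libraries are serial samples of such populations, a difference between the populations that arose apart from PPP2R1A cannot be told apart from the knockdown.

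Genes were tested with edgeR 4.0.16 (R 4.3.3, filterByExpr, TMM, quasi-likelihood test, Benjamini-Hochberg adjustment over all tested genes at 0.05). Two-sided tests were used throughout. Standard errors follow from the F statistic. Knockdown 1-2 against control 1-2 was the first comparison, all 6 libraries the second, and a fit with 4 cells gave the contrasts with number 3. DESeq2 1.42.0, other scalings and filters, a replicate block and libraries left out were alternatives. So were counts set against the 100 nearest genes of at least 5 CPM (RefSeq order, pseudocount 0.5 CPM). CPM per kilobase used the exons of GENCODE basic. Bounds take a floor of 3 counts over a group. Of the members, 9 share a StringTie locus with another gene. The scripts were tested on simulated data. Members and lists were chosen with earlier results of these data known. A member was named if it passed a test or reached 1 CPM in control 1-2, knockdown 1-2, control 3 or knockdown 3, and from each pathway list the 4 genes of smallest p, while the other called genes of a list were named after their values were seen.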

Additional observations from a re-analysis of the deposited data

Results flagged for a closer look

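For TNFSF4 and TNFSF18 the difference between the groups as labelled was not the same at number 3 as at numbers 1-2. PPP2R1A stood at 544 CPM in the library labelled knockdown 3, against 589.8 to 647 CPM in the controls. A response to lowered PPP2R1A therefore cannot be read from number 3. At numbers 1-2 TNFSF18 had a log2 fold change of -0.13 (standard error 0.267, edgeR adjusted p = 0.787). For TNFSF4 the knockdown effect at number 3 minus that at numbers 1-2 was 9.96 on the log2 scale (standard error 0.200, edgeR adjusted p = 0.0125). TNFSF18 gave 9.39 (standard error 0.669, edgeR adjusted p = 0.0252). Both values rest on 1 control library, in which TNFSF4 had 144 counts and TNFSF18 had 3, against 9694 and 2564 counts in the library labelled knockdown 3. Neither passed edgeR's interaction test with the replicate block.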

How the results depend on the processing

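The count of 7 members called in knockdown 1-2 against control 1-2 (5 higher, 2 lower) was the same number with RLE size factors, library size alone, no filter beyond 1 count and a filter of 1 CPM. It was 9 with DESeq2 and 5 against the 100 nearest genes. It was 3 with control 3 added, and 0 with all 6 libraries. It was 0 whichever replicate was left out. The library names carry the same numbers in both groups, and the study collected its samples over 3 weeks, so same-numbered libraries may share a time of collection. They did not deviate together from their groups (correlations of 0.00232, -0.0195 and -0.115, and 0.0950 over numbers 1 and 2 alone). With the replicate block edgeR called 0 members (11 at an unadjusted p under 0.05), 0 of all genes (5162) and 0 members in the interaction (8), whereas DESeq2 with the same block, chosen after seeing the data, called 9 members and 2046 genes.

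Over all genes the 2114 calls became 3700 with DESeq2, 1380 with no filter, 704 with control 3 added, 1335 against the nearest genes and 1 with all 6 libraries, and 0 whichever replicate was left out. With library size alone, which moved the median log2 fold change of all genes by 0.135, the split was 1406 higher and 744 lower in place of 1115 and 999. Over all 6 libraries, DESeq2 called 1 member, and leaving out 1 replicate gave 0 to 3. When 1 replicate was left out of knockdown 1-2 against control 1-2, 1 group held a single library. The fits with all 6 libraries include the library labelled knockdown 3, with PPP2R1A at 544 CPM. Why the counts of calls moved was not tested.

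Of the members' single values under these alternatives, 185 kept direction and side of the threshold, 47 lost the call, 4 gained it and 15 changed direction. Those that changed direction belonged to uncalled members. TNFSF13 gave 0.11 with library size alone, 0.0085 with no filter, 0.13 with control 3 added, 0.042 with all 6 libraries and -0.53 to 0.37 with 1 replicate left out. TNFSF18 gave 0.0067 with library size alone, 0.46 with control 3 added, 0.40 with all 6 libraries, 0.20 against the nearest genes and -0.38 to 0.18 with 1 replicate left out. With 1 replicate left out, TNFSF9 gave -0.024 to 0.57 and TNFRSF13C -0.18 to 1.16. At 28474154 to 45006732 counts a library, a member listed at 0 could still have a true level of up to 3 counts by counting error alone.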

Other observations

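The 40 members lie on 14 chromosomes, and 13 pairs of them stand next to each other with no coding gene between them in the RefSeq order of GRCh38.p14. The longest such run is TNFRSF10B, TNFRSF10C, TNFRSF10D and TNFRSF10A on chromosome 8. Neighbours were often unlike in level: TNFRSF8, beside TNFRSF1B on chromosome 1, had at most 10 counts in a library, and FASLG, beside TNFSF18, had none. CD70 and TNFSF14, beside TNFSF9 on chromosome 19, had at most 8 counts and none. The median number of CG dinucleotides in the promoter window was 7 for the 27 members with a RefSeq window and 14 for all 27305 promoters.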
